A study of Homo sapiens with 12 samples.

Results

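SHI-1 is an acute myeloid leukaemia (AML) cell line that carries the MLL-AF6 fusion, in which KMT2A (MLL) is joined to AFDN. The comparison described here sets 3 RNA-seq libraries of SHI-1 cells given disulfiram with copper together with niclosamide (DSF+NSM) against 3 libraries of cells given DMSO, and it was described across all genes. The DSF+NSM cells received 0.3 µM disulfiram, 1 µM copper and 5 µM niclosamide, and both groups carried the time label of 16 h. The libraries were chosen by the treatment named in their titles and make up 6 of the 12 of the series. The remaining libraries are 3 of cells given 0.3 µM disulfiram with 1 µM copper (DSF) and 3 of cells given 5 µM niclosamide (NSM), also at 16 h. Each group came from 3 independent experiments of the same cell line, and whether the DMSO cells also received copper is not given in the sources used here.

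Disulfiram, a drug for alcohol dependence, binds copper, carries it into cells and disturbs protein turnover, and niclosamide, an anthelmintic, uncouples mitochondrial respiration. Cells have separate transcription factors for such stresses. HSF1 drives chaperone genes when proteins misfold, MTF1 drives metallothionein genes when free metal rises, NRF2 drives antioxidant genes, and ATF4 drives the integrated stress response when initiation of translation is held back by phosphorylated eIF2α.

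The authors deposited 1 normalized count for each gene and library, obtained from estimated reads through a scaling factor per library. The values of the DMSO libraries summed to 13.96 M to 14.38 M, with a mean of 14.19 M ± 0.21 (SD, n = 3), and those of the DSF+NSM libraries to 22.7 M to 25.6 M, with a mean of 24.5 M ± 1.58 (SD, n = 3). The sums did not overlap and their means differed 1.72-fold (exact permutation test over samples, two-sided, p = 0.1, the smallest p that 3 against 3 can give). The deposited scaling kept the median gene level of the libraries close, at 262 to 264 in DMSO and 250 to 256 in DSF+NSM. A second scaling, in which every library has the same sum, is therefore given beside it, because the direction of many genes depends on the choice. Which scaling is nearer to RNA per cell cannot be told from these files, and in bulk RNA fewer cells of a type and less RNA per cell cannot be told apart.

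The lowest values of a library rose in constant steps, from which 14.5 M to 19.03 M reads were estimated for DMSO and 10.2 M to 16.3 M for DSF+NSM. All 12 myeloid markers fixed for the check of cell identity were in the tables, 11 of them with a mean over 100, and the erythroid and epithelial markers were not in them. Of the other markers, KDR of endothelial cells was listed at 0 in all 6 libraries, and the most abundant was NKG7, a cytotoxic granule gene, at up to 1848. Of the 9 T and NK cell markers 4 were in the tables and 3 were called higher, NKG7 among them (0.76, −0.03 at equal sums), with sums of 1047 to 1130 in DMSO and 1645 to 2060 in DSF+NSM. The 6 B cell markers summed to 53.1 to 60.1 in DMSO and to 26.6 to 682 in DSF+NSM, where PAX5 reached 471, and none was called. Of 6 fibroblast markers 3 were in the tables and 2 were called higher, with sums of 36.0 to 46.0 in DMSO and 78.9 to 212 in DSF+NSM. The part of these markers in the results was not tested. DSF+NSM replicate 3, the library with the fewest estimated reads, held the lowest of the 3 DSF+NSM values in 323 of the 491 genes called higher with a log2 fold change over 3, with a median ratio of 0.759 to the mean of the other 2.

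Expression changed across most of the transcriptome. With limma on log2(normalized count + 1) and Benjamini-Hochberg adjustment over the 13502 genes tested, 7125 genes (52.8%) were called at an adjusted p under 0.05 under the deposited scaling, 3816 higher (28.3%) and 3309 lower (24.5%). At equal sums 9116 genes (67.5%) were called, 1534 higher (11.4%) and 7582 lower (56.2%), and the median over all genes of the log2 fold change moved from 0.03 to −0.74. The share of calls that were higher was thus 53.6% under the deposited scaling and 16.8% at equal sums. Of the 3816 genes called higher, 1534 were also higher at equal sums, 2114 were then not called and 168 were then lower. All 3309 genes called lower were also lower at equal sums. An absolute log2 fold change over 1 was reached by 29.4% of the genes tested under the deposited scaling (16.9% higher, 12.6% lower) and by 45.9% at equal sums (7.87% higher, 38.0% lower). With all libraries in 1 fit, leaving out any single library gave between 5980 (without DMSO replicate 2) and 9137 (without NSM replicate 3) called genes, and 6778 without DSF+NSM replicate 3.

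**Figure D1:**
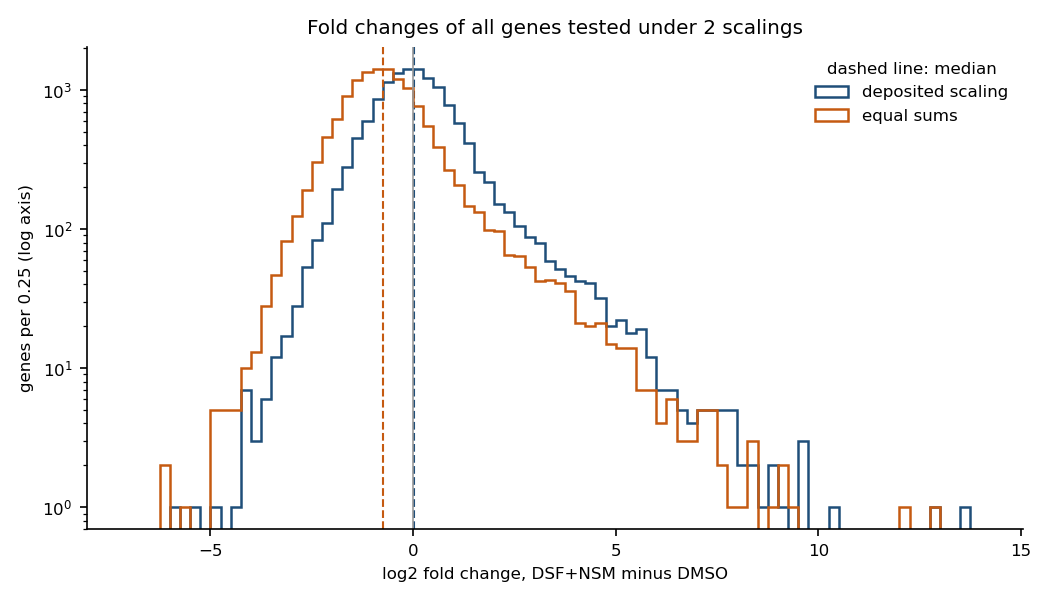
Log2 fold changes (horizontal axis, DSF+NSM minus DMSO) of the 13502 genes tested, counted in narrow equal bins on a log vertical axis, under the deposited scaling and at equal sums. The dashed medians stand at 0.03 and −0.74, and both distributions have a longer tail to the right than to the left.

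Large rises outnumbered large falls in both scalings. A log2 fold change over 3 was found for 491 genes called higher and one under −3 for 44 genes called lower, and at equal sums for 315 and 192. The filter and the floor at 0 favour rises here, because genes near 0 in DMSO entered the test through treated libraries and can hardly fall. Among the 981 tested genes with a DMSO mean under 10, 63.2% were called higher and 0.204% lower. The 10 genes with the largest rises were HMOX1, HSPA6, MT1X, HSPA1A, CRYAB, MT1B, HSPA1B, MT1G, MT1H and MIR7-3HG, among genes with a mean of at least 50 whose 6 values did not overlap between groups (no overlap was found for 69.3% of all genes tested). They comprise a heme oxygenase, 4 chaperones, 4 metallothioneins and a microRNA host transcript. HMOX1, HSPA6, MT1X, HSPA1A and HSPA1B had a level above 0 in DMSO, and CRYAB, MT1B, MT1G, MT1H and MIR7-3HG were listed at 0 in all 3 DMSO libraries.

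A small number of genes accounted for most of the larger sums. In DMSO the 591 to 627 most abundant genes made up 50% of a library's sum, and in DSF+NSM the 103 to 137 most abundant. At equal sums nothing is added, so the parts of the added sum hold for the deposited scaling only. The 32 genes of the cytosolic heat shock list accounted for 28.3% of the 10.3 M added to the mean sum. The 79 cytosolic ribosomal protein genes accounted for 17.8%, cytoplasmic ribosomal RNA for 14.5% and mitochondrial ribosomal RNA for 7.55%. The ferritin genes with HMOX1 accounted for 6.40% and the metal response genes for 3.86%. The 20 genes with the largest increase held 60.8% of the added sum. The share of the heat shock genes rose from 1.32% ± 0.0081 of the sum in DMSO to 12.6% ± 1.92 in DSF+NSM, and that of the metal response genes from 0.017% ± 0.00079 to 1.63% ± 0.077 (SD, n = 3 each). Shares do not depend on the scaling, and for each of these classes the exact permutation test over samples gave p = 0.1, the smallest that 3 against 3 allows.

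**Figure D2:**
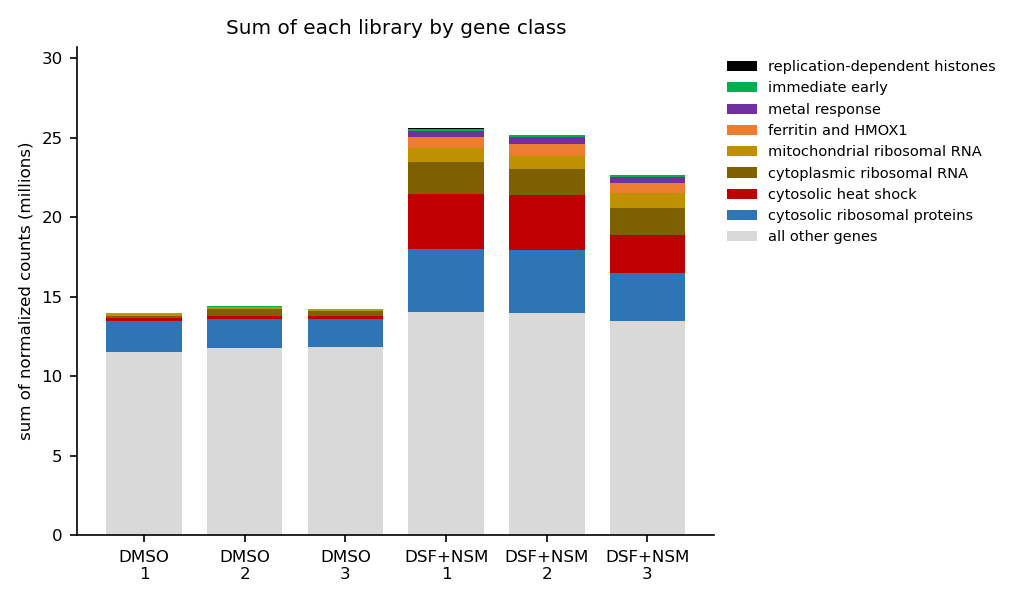
Sum of normalized counts in M (vertical axis) of each DMSO and DSF+NSM library, stacked by gene class. Under this deposited scaling the grey part (all other genes) accounts for 20.4% of the difference between the group means and the heat shock part for 28.3%. As a share of the sum the grey part fell from 82.5% to 56.5%.

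Genes of the heat shock list rose almost throughout. The list is named for the cytosol and holds mostly chaperones. It also holds HSPD1 of mitochondria, SERPINH1 of the endoplasmic reticulum and the transcription factor genes HSF1 and HSF2. Of the 32 genes of the cytosolic heat shock list, 28 were called higher and 1 lower (28.3% and 24.5% of all genes tested), with a median log2 fold change of 2.90, and at equal sums 25 were higher and 2 lower with a median of 2.12. HSPA6, a strictly inducible HSP70 (chr1:161524540-161526894, hg38, plus strand, a gene of a single exon), stood at 17.7, 20.4 and 11.8 in DMSO and at 149856, 153117 and 78927 in DSF+NSM. The groups were far apart and replicate 3 was the lowest DSF+NSM library (log2 fold change 12.79 ± 0.37 SE, adjusted p = 1.57e-10, 12.02 at equal sums). DNAJB1, the HSP40 partner of inducible HSP70, stood at 2856, 2756 and 2589 in DMSO and at 631025, 659184 and 468761 in DSF+NSM (7.73 ± 0.26, adjusted p = 6.75e-10). HSP90AA1, the stress-inducible HSP90, stood at 47731, 49362 and 45766 in DMSO and at 908983, 906127 and 629743 in DSF+NSM (4.08 ± 0.19, adjusted p = 1.27e-08), and it added more to the sum than any other protein-coding gene. CRYAB, a small heat shock protein, was listed at 0 in all 3 DMSO libraries and stood at 1218, 984 and 486 in DSF+NSM. HSPA1A rose by 9.74 and HSPA1B by 9.12 on the log2 scale, but these genes encode the same protein from nearly identical sequences, and how the counting split their reads is not known. FKBP5, a cochaperone of steroid receptors, was the member called lower (−0.79), and HSF1 (0.45), HSF2 (0.08) and DNAJB4 (0.15) were not called. The values of FKBP5 and of the 3 uncalled members were looked up after the counts were known.

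The 250 bases before the start of 4 of these genes are shown because heat shock elements, runs of the unit GAA and its complement TTC at fixed spacing, are the sites HSF1 is known to bind. The sequences are RefSeq windows of build GRCh38.p14, printed 5′ to 3′ on the strand of the gene. Capitals mark each match to GAANNTTC or TTCNNGAA, the 2 orders of adjacent units, each of which reads the same on both strands. For DNAJB1 and HSP90AA1, which have 3 and 2 start sites in the table, the window with most matches is printed.
HSPA6 (chr1:161524290-161524539, plus strand): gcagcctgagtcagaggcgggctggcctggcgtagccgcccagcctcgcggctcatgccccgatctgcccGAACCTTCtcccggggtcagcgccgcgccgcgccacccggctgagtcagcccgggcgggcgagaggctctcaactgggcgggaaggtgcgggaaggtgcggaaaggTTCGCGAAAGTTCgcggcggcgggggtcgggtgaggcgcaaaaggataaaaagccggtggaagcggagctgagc
HSPA1A (chr6:31815293-31815542, plus strand): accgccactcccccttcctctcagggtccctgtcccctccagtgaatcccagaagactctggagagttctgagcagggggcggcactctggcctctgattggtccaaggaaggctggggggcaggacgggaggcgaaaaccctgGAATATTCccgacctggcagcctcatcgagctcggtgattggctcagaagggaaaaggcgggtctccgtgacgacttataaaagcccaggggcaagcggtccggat
DNAJB1 (chr19:14518398-14518647, minus strand): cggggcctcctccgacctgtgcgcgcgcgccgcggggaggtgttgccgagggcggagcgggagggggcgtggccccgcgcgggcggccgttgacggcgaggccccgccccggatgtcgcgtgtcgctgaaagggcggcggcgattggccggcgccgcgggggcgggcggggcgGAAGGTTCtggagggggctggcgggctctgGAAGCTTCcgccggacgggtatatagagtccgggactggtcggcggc
HSP90AA1 (chr14:102087045-102087294, minus strand): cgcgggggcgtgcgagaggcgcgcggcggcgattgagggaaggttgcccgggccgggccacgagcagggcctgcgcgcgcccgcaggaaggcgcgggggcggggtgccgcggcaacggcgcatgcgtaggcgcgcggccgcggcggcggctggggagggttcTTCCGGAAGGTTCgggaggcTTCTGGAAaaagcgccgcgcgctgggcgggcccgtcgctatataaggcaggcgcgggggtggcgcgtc
HSPA6 and HSP90AA1 hold 3 matches each, overlapping matches included, DNAJB1 holds 2 and HSPA1A holds 1. A window was found for 29 of the 32 list genes, and 17 of these (58.6%) held at least 1 match, beside 14.0% of the 27305 genes with a window in the whole table and 12.2% of the tested genes with one. The stricter run of 3 units, GAANNTTC followed after NN by a further GAA, on either strand, stood in 8 of the 29 (27.6%), in 0.557% of all genes with a window and in 0.466% of the tested genes with one. Matches are descriptions of these letters, not measured binding.

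Metallothioneins, small cysteine-rich proteins that bind copper and zinc, lead the list with the largest median change. All 9 members tested of the metal response list were called higher, with a median log2 fold change of 8.24, and 9 were also higher at equal sums (median 7.46). MT2A (chr16:56608584-56609497, hg38), the most abundant of them, stood at 1750, 1710 and 1576 in DMSO and at 238399, 251802 and 208773 in DSF+NSM (7.11 ± 0.15, adjusted p = 9.8e-12). MT1X stood at 131, 118 and 110 in DMSO and at 139820, 150076 and 155654 in DSF+NSM (10.27 ± 0.17, adjusted p = 1.41e-12), and unlike most chaperones it was not lowest in replicate 3. MT1B, MT1G and MT1H, listed at 0 in every DMSO library, reached 690 to 838, 435 to 534 and 397 to 495. The MT1 genes lie side by side on chromosome 16 and resemble each other closely, so the division of reads among them is uncertain. Outside the metallothioneins the zinc exporter SLC30A1 (6.22) and the transcription factor gene MTF1 (1.08, 0.29 at equal sums) were also called higher, both looked up after the count was known. When at least 10 in every library was required, 5 members were called higher. The members listed at 0 in every DMSO library entered the test only through treated libraries.

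The windows before MT1X and MT2A are shown because metal response elements, the sites MTF1 is known to bind, cluster there. Capitals mark matches to the element's core, TGCACNC or TGCGCNC on either strand.
MT1X (chr16:56682220-56682469, plus strand): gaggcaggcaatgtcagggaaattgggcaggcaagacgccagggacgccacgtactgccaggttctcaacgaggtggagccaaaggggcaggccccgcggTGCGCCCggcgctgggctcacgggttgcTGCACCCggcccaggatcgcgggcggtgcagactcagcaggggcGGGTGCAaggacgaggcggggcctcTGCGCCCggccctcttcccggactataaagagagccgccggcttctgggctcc
MT2A (chr16:56608334-56608583, plus strand): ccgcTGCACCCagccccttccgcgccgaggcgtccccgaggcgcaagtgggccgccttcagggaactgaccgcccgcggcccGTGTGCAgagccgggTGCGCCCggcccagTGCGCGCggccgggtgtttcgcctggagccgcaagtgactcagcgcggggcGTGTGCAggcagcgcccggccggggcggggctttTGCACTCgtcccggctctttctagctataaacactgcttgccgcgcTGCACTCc
MT1X holds 4 matches and MT2A holds 7. At least 1 match stood in 28.5% of all genes with a window, in 39.5% of the 10297 tested genes with a window and in 32.3% of those called higher with a log2 fold change over 3. The 1227 tested genes with 2 or more matches had a median log2 fold change of −0.12, and 23.2% of them were called higher. Only 6 of the 9 list genes had a window, too few for a share of the list.

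Genes of iron storage, heme breakdown and antioxidant defence formed the next group. Of the 28 NRF2 targets tested, 24 were called higher and 3 lower (median log2 1.26), and at equal sums 15 were higher and 3 lower (median 0.48). HMOX1, which breaks down heme (chr22:35380361-35394214, hg38), showed the largest fold change of all genes. It stood at 9.72, 8.31 and 10.8 in DMSO and at 124719, 133674 and 117085 in DSF+NSM (13.53 ± 0.26, adjusted p = 4.22e-12). FTH1, the ferritin heavy chain, stood at 3356, 3068 and 3140 in DMSO and at 139589, 157183 and 173174 in DSF+NSM (5.61 ± 0.15, adjusted p = 9.06e-11). FTL, the ferritin light chain, rose by 3.13 from a higher level, 46115 to 50334 in DMSO. AKR1C1, an aldo-keto reductase, rose by 4.89 and shares much of its sequence with AKR1C2. FTH1 and FTL have many processed pseudogenes, so a part of their reads is uncertain. The members called lower were the export pumps ABCC4 (−1.50) and ABCC1 (−0.87) and the thioredoxin gene TXN (−0.33), named after their values were seen.

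Most genes that clear damaged protein were called higher under the deposited scaling, but not at equal sums. Of the 32 proteasome genes, 27 were called higher and none lower (median 0.89), and at equal sums 6 were higher and 6 lower (median 0.11). The ubiquitin receptor ADRM1 (2.24, adjusted p = 2.55e-07) and the base ATPases PSMC1 (2.13) and PSMC4 (1.80) rose most and remained above 1 at equal sums, at 1.46, 1.34 and 1.02. Of the 18 genes of ubiquitin and the p97 segregase, 16 were called higher and none lower (median 0.96), or 1 lower without NSM replicate 3, and at equal sums 6 were higher and 2 lower. ZFAND2A, an arsenite-inducible partner of the proteasome, stood at 129, 111 and 107 in DMSO and at 9363, 9710 and 5523 in DSF+NSM (6.10 ± 0.25, adjusted p = 3.91e-09). The polyubiquitin gene UBB rose by 4.36. Of the 37 genes of lysosome and autophagy, 30 were called higher and none lower (median 1.00), and at equal sums 12 were higher and 7 lower (median 0.22). SQSTM1, the autophagy receptor p62, stood at 2119, 2147 and 2076 in DMSO and at 48215, 52576 and 48438 in DSF+NSM (4.55 ± 0.20, adjusted p = 5.56e-09). GABARAPL1 and WIPI1, which act in autophagosome formation, rose by 3.98 and 2.96. The TRiC chaperonin, which folds actin and tubulin, was divided, with 5 of 8 subunits called higher and 2 lower, whereas at equal sums none was higher and 3 were lower. Its largest rises, in CCT3 (1.15), TCP1 (1.05) and CCT4 (0.97), were not called at equal sums, and 1 subunit was called lower in place of 2 when any DMSO or DSF+NSM library or DSF replicate 1 or 2 was left out.

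Among targets of ATF4 and of the endoplasmic reticulum the changes were mixed. Of the 32 genes of the integrated stress response, 25 were called higher and 4 lower (median 1.09), and at equal sums 14 were higher and 8 lower (median 0.31). DDIT3, which encodes the transcription factor CHOP, stood at 244, 193 and 139 in DMSO and at 5778, 6140 and 6043 in DSF+NSM (4.99 ± 0.20, adjusted p = 2.78e-09). ATF3 stood at 51.4, 43.9 and 43.2 in DMSO and at 2839, 2661 and 2627 in DSF+NSM (5.85 ± 0.23, adjusted p = 2.78e-09). PPP1R15A, the eIF2α phosphatase subunit GADD34, rose by 6.10, and ATF4 itself by 1.53 (0.75 at equal sums). GDF15, a secreted stress cytokine, was listed at 0.884, 0.756 and 0.98 in DMSO, about 1 read per library, and at 424, 477 and 453 in DSF+NSM. The members called lower were ALDH18A1 (−1.80) and PSPH (−1.14), enzymes of proline and serine synthesis, STC2 (−0.74) and the cationic amino acid carrier SLC7A1 (−0.55), of which PSPH, STC2 and SLC7A1 were named after their values were seen. ATF3 has 2 start sites in the table, and the window with most matches is shown because it holds the element TGATGNAA, written here for the composite site of ATF4 and C/EBP factors, on either strand and in capitals.
ATF3 (chr1:212565157-212565406, plus strand): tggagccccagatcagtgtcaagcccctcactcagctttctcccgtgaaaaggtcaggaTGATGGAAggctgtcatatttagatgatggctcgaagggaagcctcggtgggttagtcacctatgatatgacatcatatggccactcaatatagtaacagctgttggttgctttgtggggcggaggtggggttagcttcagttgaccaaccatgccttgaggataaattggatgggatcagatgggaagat
The element stood in 5 of the 26 list genes with a window (19.2%), ASNS, ATF3, CEBPG, CHAC1 and JDP2, in 3.89% of all genes with a window and in 2.21% of the tested genes with one. Of the 24 genes of the unfolded protein response of the endoplasmic reticulum, 15 were called higher and 1 lower (median 0.55), and at equal sums 5 were higher and 7 lower. The chaperone HSPA5 (BiP) stood at 11608, 12099 and 12460 in DMSO and at 49949, 55600 and 70307 in DSF+NSM (2.27 ± 0.14, adjusted p = 8.84e-08), and ERN1, the sensor IRE1, rose by 2.49. PDIA4, a disulfide isomerase, was the member called lower (−0.65), looked up after the count was known, and without NSM replicate 3 the number called lower was 2. Of the 20 aminoacyl-tRNA synthetases, which charge tRNAs, 10 were called higher and 6 lower, led by CARS (2.13), YARS (1.43) and TARS (1.41), and at equal sums 6 were higher and 10 lower. The number called lower was 1 without any of the DMSO libraries, 2 without any of the DSF libraries or DSF+NSM replicate 1 or 2, and 3 without DSF+NSM replicate 3. Of 14 amino acid transporters 4 were called higher, among them SLC43A2 (2.72) and SLC3A2 (1.66), and 4 lower, among them SLC7A6 (−1.42), against 2 and 10 at equal sums. Under the deposited scaling the shares of the transporters were near those of all genes tested, 28.3% and 24.5%. The synthetases had a larger share called higher than all genes tested. At equal sums 11.4% of all genes were higher and 56.2% lower.

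**Figure D3:**
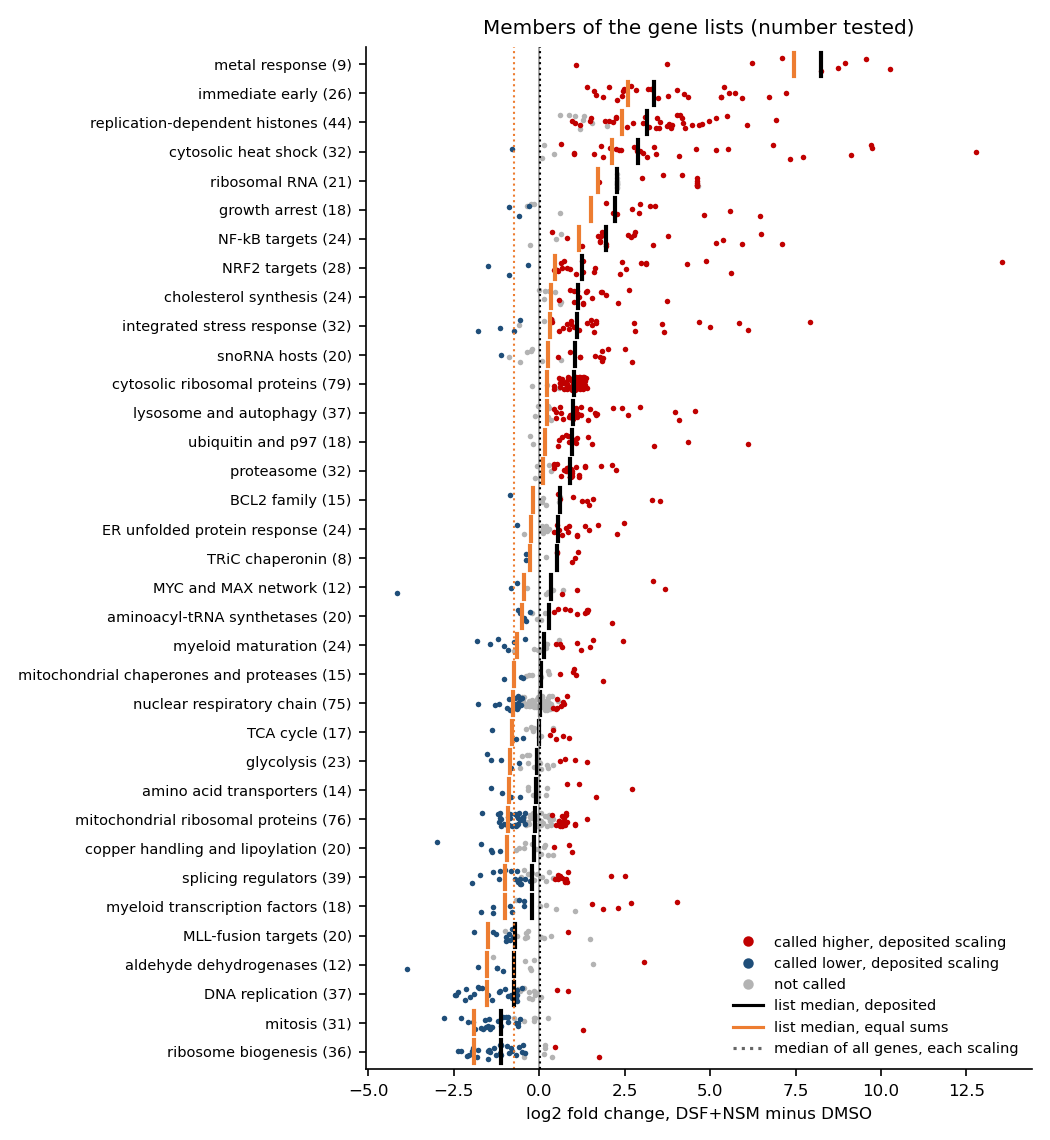
Log2 fold changes (horizontal axis, DSF+NSM minus DMSO, deposited scaling) of the members of each gene list with at least 8 genes tested, with the number tested in parentheses. Red points were called higher, blue points lower and grey points were not called, the black bar is the list median under the deposited scaling (8.24 for the metal response, −1.12 for ribosome biogenesis), the orange bar is the median at equal sums, and the dotted lines are the medians of all genes at 0.03 and −0.74.

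Every gene of the immediate early list rose in both scalings. All 26, transcription factors and phosphatases that answer signals and stress within minutes, were called higher, with a median log2 fold change of 3.36, and at equal sums 26 of 26 were higher with a median of 2.58. Among all genes tested 28.3% were called higher, and 11.4% at equal sums. IER5, a regulator of HSF1, stood at 185, 150 and 168 in DMSO and at 28281, 28390 and 19435 in DSF+NSM (7.22 ± 0.29, adjusted p = 2.78e-09). DUSP1, a phosphatase of MAP kinases, rose by 5.93 and the transcription factor gene EGR3 by 6.72 from 3.29 to 6.36 in DMSO. At that level EGR3 entered the test only through treated libraries and could hardly be called lower. Of 24 NF-kB subunits and targets 21 were called higher and none lower (median 1.95), and at equal sums 18 were higher and 2 lower (median 1.17). The chemokine gene CCL3 stood at 56.6, 43.1 and 33.3 in DMSO and at 6493, 6293 and 5523 in DSF+NSM (7.10 ± 0.29, adjusted p = 3.01e-09). CCL4 (6.50) and IL8 (CXCL8, 5.92) also rose. CCL3 and CCL4 have near copies in the genome, CCL3L3 and CCL4L1 among them, so their reads may be shared.

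The lists of growth arrest and of the BCL2 family held calls in both directions. Of 18 genes of growth arrest 11 were called higher and 3 lower (median 2.23), and at equal sums 11 were higher and 6 lower (median 1.50). GADD45B, a stress sensor, stood at 656, 729 and 656 in DMSO and at 39120, 44484 and 19460 in DSF+NSM (5.57 ± 0.28, adjusted p = 2.28e-08), and its relative GADD45G rose by 6.45, in both cases with replicate 3 lowest. PLK2 rose by 4.83 from 2.68 to 4.95 in DMSO. CDKN1B (−0.87) and SESN1 (−0.58), named after their values were seen, were among those called lower, and the number called lower was 1 without DMSO replicate 1 or DSF+NSM replicate 1 or 2. Of 15 genes of the BCL2 family 9 were called higher and 1 lower, and at equal sums 6 were higher and 4 lower (median −0.18). The largest rises were those of BBC3 (PUMA), at 127, 89.4 and 102 in DMSO and 1140, 1235 and 1308 in DSF+NSM (3.53 ± 0.29, adjusted p = 1.05e-06), and PMAIP1 (NOXA, 3.29), which both promote cell death, followed by MCL1, which restrains it (1.58, 0.80 at equal sums). BCL2 itself, which also restrains cell death, was the member called lower (−0.84), looked up after the count was known.

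**Figure D4:**
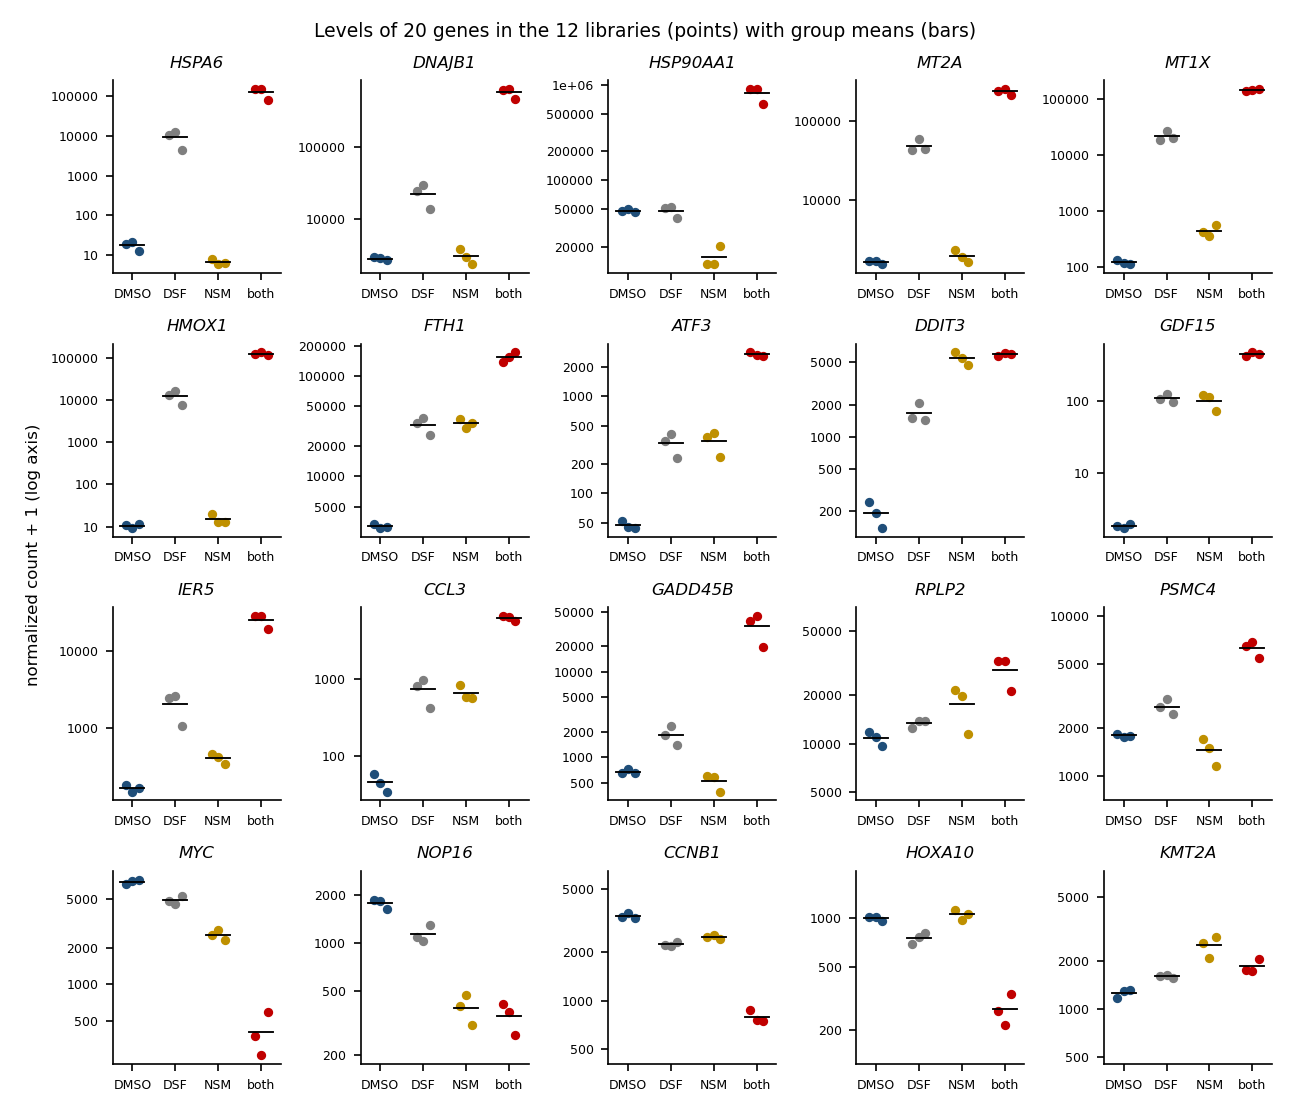
Normalized count + 1 (log vertical axis) of 20 genes in each of the 12 libraries, grouped as DMSO, DSF, NSM and both drugs, with group means as bars. The 3 DSF+NSM libraries lie above the 3 DMSO libraries in the first 15 genes and in KMT2A, and below them in MYC, NOP16, CCNB1 and HOXA10.

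Ribosomal proteins and the factors that assemble ribosomes moved in opposite directions under the deposited scaling. Of the 79 cytosolic ribosomal protein genes 76 were called higher and none lower, with a median log2 fold change of 1.01, but at equal sums 18 were higher and 4 lower and the median was 0.23. RPLP2, an acidic stalk protein, stood at 11746, 10995 and 9597 in DMSO and at 32652, 32637 and 21400 in DSF+NSM (1.40 ± 0.22, adjusted p = 0.000219, 0.62 at equal sums). RPS9 and RPS19 were called under the deposited scaling and not at equal sums, where both stood at 0.57. In all 76 called genes replicate 3 had the lowest DSF+NSM value, and many of these genes have pseudogenes that can share reads. Of 36 genes of ribosome biogenesis and RNA polymerase I, by contrast, 28 were called lower and 2 higher (median −1.12), and at equal sums 35 were lower and 1 higher (median −1.90). NOP16, a nucleolar assembly factor, stood at 1866, 1834 and 1638 in DMSO and at 415, 371 and 267 in DSF+NSM (−2.36 ± 0.19, adjusted p = 1.09e-06). POLR1A, the catalytic subunit of RNA polymerase I (−2.28), and the assembly factor RRS1 (−2.11) also fell. The members called higher were TAF1D (1.75, 0.97 at equal sums) and NOP2 (0.46, −0.33 at equal sums), named after their values were seen, and 1 was called higher without DSF+NSM replicate 1.

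Ribosomal RNAs and replication-dependent histone messages made up more of the DSF+NSM libraries, although poly(A) RNA had been selected. Of 21 ribosomal RNA genes 10 were called higher and none lower, and at equal sums 9 were higher. RNA28S5 stood at 107807, 238965 and 176489 in DMSO and at 1478530, 1184310 and 1324750 in DSF+NSM (3.00 ± 0.48, adjusted p = 0.000238), and the precursor RNA45S5 rose by 3.63. RNA18S5, at 36426, 156812 and 125625 in DMSO and at 413854, 279312 and 239936 in DSF+NSM, was near the threshold (1.76, adjusted p = 0.0451), and it was not called at equal sums, nor without DMSO replicate 1, DSF replicate 1 or 2 or any DSF+NSM library. Several 5S genes hold identical values in these tables and cannot count as separate observations, and without DSF+NSM replicate 3 the number of ribosomal RNA genes called higher was 19, whereas it was 3 when a value of at least 10 in every library was required. The mitochondrial ribosomal RNAs RNR1 and RNR2, the only mitochondrially encoded genes of the list in the tables, rose by 3.63 and 3.01. Of 44 replication-dependent histone genes tested, whose messages normally end without a tail, 36 were called higher and none lower (median 3.16), and at equal sums 30 were higher (median 2.44). HIST1H2BJ stood at 6.19, 7.56 and 11.8 in DMSO and at 628, 642 and 582 in DSF+NSM (6.07 ± 0.27, adjusted p = 7.04e-09). HIST2H2AA3 and HIST2H2AA4 are near-identical copies, and their values, the same in DMSO, differed among the DSF+NSM libraries. Most histone genes were near the lower limit in DMSO, and 10 were called when a value of at least 10 in every library was required. A gene under 10 in every DMSO library entered the test only if at least 3 treated libraries reached 10. Of the 981 tested genes with a DMSO mean under 10, 63.2% were called higher and 0.204% lower. The absence of lower calls is therefore no result about the histone genes. Whether RNA quality or the selection step differed between the groups was not tested.

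Of 20 host transcripts of small nucleolar RNAs 12 were called higher and 1, NOP56 (−1.12), lower (median 1.05), and at equal sums 9 were higher and 6 lower (median 0.26). ZFAS1 stood at 3168, 3147 and 2815 in DMSO and at 13281, 12754 and 11059 in DSF+NSM (2.02 ± 0.10, adjusted p = 2.28e-08), and SNHG12 (2.71) and EPB41L4A-AS1 (2.50) rose more. The number of hosts called lower was 2 or 3 without DSF replicate 3, NSM replicate 1 or 3 or DSF+NSM replicate 3. Of 39 SR and hnRNP genes and CLK kinases 12 were called higher and 15 lower (median −0.21), beside 28.3% and 24.5% of all genes tested. At equal sums 2 were higher and 26 lower, beside 11.4% and 56.2%. CLK1 (2.50) and CLK3 (2.11), kinases that phosphorylate SR proteins, rose in both scalings, and SRSF1, an SR protein, fell from 7549, 7492 and 7609 in DMSO to 2152, 2292 and 1471 in DSF+NSM (−1.96 ± 0.15, adjusted p = 6.41e-07).

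Most proliferation genes were called lower in both scalings, beside 24.5% of all genes tested under the deposited scaling and 56.2% at equal sums. Of 31 mitosis genes 24 were called lower and 1, UBE2C (1.28, 0.51 at equal sums), higher (median −1.11), and at equal sums 29 were lower and none higher. Without DSF+NSM replicate 3, 2 mitosis genes were called higher. CCNB1, the mitotic cyclin B1, stood at 3328, 3503 and 3293 in DMSO and at 879, 761 and 741 in DSF+NSM (−2.09 ± 0.10, adjusted p = 2.11e-08). KIF20A, a kinesin of cytokinesis (−2.80), and CENPA, the centromeric histone (−2.29), also fell. Of 37 DNA replication genes 24 were called lower and 2 higher (median −0.74), and at equal sums 35 were lower and none higher. PCNA, the sliding clamp of DNA polymerases, stood at 5104, 5195 and 5025 in DMSO and at 1231, 883 and 888 in DSF+NSM (−2.37 ± 0.15, adjusted p = 1.44e-07), and MCM10 and POLE2 fell by 2.45 and 2.44. CDT1 (0.84, 0.06 at equal sums) and ORC1 (0.52, −0.26 at equal sums), which license origins, were called higher and were named after their values were seen, and only 1 of the pair was called without DSF+NSM replicate 2. Replication-dependent histone genes, which belong to the same phase of the cell cycle, are those described above as higher.

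MYC, the growth-promoting transcription factor, was among the 10 largest falls. It stood at 6648, 7067 and 7246 in DMSO and at 376, 261 and 588 in DSF+NSM (−4.17 ± 0.22, adjusted p = 3.23e-08, −4.95 at equal sums). Its antagonist MXD1 stood at 282, 300 and 310 in DMSO and at 2880, 2774 and 3358 in DSF+NSM (3.33 ± 0.19, adjusted p = 5.47e-08), and the neighbouring transcript PVT1 rose by 1.10, which was not called at equal sums (0.33). In the network of 12 genes 4 were called higher and 3 lower, near the shares of all genes tested (28.3% and 24.5%). At equal sums 2 were higher and 6 lower, beside 11.4% and 56.2% of all genes tested. Without NSM replicate 3, 7 were called higher.

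Of 20 target genes of MLL fusions 9 were called lower and 1 higher (median −0.72), and at equal sums 15 were lower and none higher (median −1.49). Beside them, 24.5% of all genes tested were called lower and 28.3% higher, and at equal sums 56.2% and 11.4%. HOXA10, a homeobox gene of leukaemic self-renewal, stood at 1017, 1019 and 962 in DMSO and at 264, 215 and 335 in DSF+NSM (−1.90 ± 0.16, adjusted p = 1.22e-06). HOXA7 stood at 230, 244 and 229 and at 99.8, 107 and 84.4 (−1.27 ± 0.17, adjusted p = 4.62e-05), and GFI1, a repressor in myeloid progenitors, fell by 1.35. MEIS1, the partner of HOXA9, stood at 1111, 1197 and 1219 in DMSO and at 602, 625 and 866 in DSF+NSM (−0.77 ± 0.17, adjusted p = 0.00202). HOXA9 itself stood at 612, 659 and 629 in DMSO and at 469, 418 and 648 in DSF+NSM, values that overlap through replicate 3, and it was not called (−0.33 ± 0.28, adjusted p = 0.35), whereas at equal sums it was called lower (−1.11, adjusted p = 0.00487). SENP6 was the member called higher (0.84, 0.06 at equal sums), it was not called without DSF+NSM replicate 3, and 2 members were called higher without NSM replicate 3. KMT2A stood at 1166, 1284 and 1312 in DMSO and at 1747, 1727 and 2059 in DSF+NSM, a rise under the deposited scaling (0.55 ± 0.13, adjusted p = 0.0036) that was a value of −0.23 and not called at equal sums (adjusted p = 0.159). AFDN, listed as MLLT4, rose by 0.81 and stood at 0.02 at equal sums. Reads of the fusion cannot be told from those of either partner in gene counts.

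Of 18 myeloid transcription factors 5 were called higher and 8 lower (28.3% and 24.5% of all genes tested), and at equal sums 5 were higher and 11 lower. IKZF1 (Ikaros) stood at 2153, 2145 and 2532 in DMSO and at 716, 608 and 793 in DSF+NSM (−1.69 ± 0.19, adjusted p = 1.56e-05). Without DSF+NSM replicate 3 the number called lower was 5, and when at least 10 in every library was required the number called higher was 2. Of 24 maturation genes 8 were called higher and 7 lower, shares near those of all genes tested, and at equal sums 2 were higher and 15 lower. CD14, the monocyte receptor of lipopolysaccharide, stood at 64.8, 54 and 60.1 in DMSO and at 272, 360 and 377 in DSF+NSM (2.46 ± 0.26, adjusted p = 8.37e-06), and the integrin ITGAX rose by 1.57. MPO, the myeloperoxidase of granules and among the 4 genes with the largest decrease of the mean, stood at 54162, 57371 and 62640 in DMSO and at 22034, 22044 and 19671 in DSF+NSM (−1.45 ± 0.13, adjusted p = 2.19e-06). MNDA, a nuclear antigen of myeloid cells, fell by 1.83. The other genes with the largest decrease of the mean were TUBA1B (−1.17), LDHA (−1.52) and ACTB (−0.37), which encode tubulin, lactate dehydrogenase and actin, and ACTB was not called without DMSO replicate 3.

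Of 76 nuclear genes for mitochondrial ribosomal proteins 16 were called higher and 27 lower (median −0.12), beside 28.3% and 24.5% of all genes tested. At equal sums 1 was higher and 57 lower, beside 11.4% and 56.2% of all genes tested. MRPL17 fell by 1.66 and MRPS23 by 1.22, and MRPL10 rose by 1.41 (0.63 at equal sums). Of 75 nuclear genes of the respiratory chain 8 were called higher and 17 lower (median 0.01), and at equal sums none was higher and 64 lower. NDUFC2, a subunit of complex I, stood at 1627, 1730 and 1647 in DMSO and at 473, 472 and 506 in DSF+NSM (−1.78 ± 0.13, adjusted p = 2.93e-07), and ATP5G1 (−1.29) and NDUFC1 (−1.18) also fell. Their counts depended on the libraries in the fit, with 20 higher and 30 lower without NSM replicate 3, and 3 to 5 higher without DMSO replicate 2 or 3 or DSF+NSM replicate 1 or 2. Of 15 mitochondrial chaperones and proteases 5 were called higher and 3 lower, and at equal sums 1 was higher and 9 lower. In both scalings these shares were near those of all genes tested. HSPE1, the chaperonin cofactor, rose by 1.87 and the protease gene LONP1 by 1.07, the latter not called at equal sums (0.29). OMA1, the protease that relays mitochondrial stress, fell by 1.02, and was not called without any DMSO library or DSF+NSM replicate 1 or 2. The number called lower was 1 without DMSO replicate 3 or DSF+NSM replicate 1 or 2.

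Enzymes of copper handling and protein lipoylation, the modification to which copper binds in the mitochondrial matrix, had 3 of 20 members called higher and 5 lower (median −0.15), and at equal sums none higher and 17 lower. Of all genes tested 28.3% were called higher and 24.5% lower, and at equal sums 11.4% and 56.2%. GCSH, the lipoylated H protein of glycine cleavage, stood at 344, 313 and 292 in DMSO and at 49, 37.1 and 33.3 in DSF+NSM (−2.98 ± 0.45, adjusted p = 0.000157). DLAT, the lipoylated subunit of pyruvate dehydrogenase, fell by 1.37 and the copper chaperone gene SCO1 by 1.41. Without NSM replicate 3 the number called lower was 8. Among 17 genes of the TCA cycle 5 were called higher and 3 lower, shares near those of all genes tested. At equal sums none was higher and 13 were lower. IDH3B (0.87) and IDH3G (0.70), subunits of isocitrate dehydrogenase, were not called at equal sums, where IDH3G stood at −0.08. Without DMSO replicate 1 or 2 the number called higher was 2 or 3. Among 23 glycolysis genes 4 were called higher and 5 lower, and at equal sums 1 was higher and 16 lower, with falls of LDHA (−1.52) and the regulatory kinase PFKFB4 (−1.42) and a rise of the glucose carrier SLC2A3 (1.40). Without NSM replicate 3 the number called lower was 10.

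Of 12 aldehyde dehydrogenase genes tested, the family that disulfiram is known to inhibit, 5 were called lower and 1 higher, and at equal sums 10 were lower and 1 higher. ALDH1B1, a mitochondrial member and among the 10 largest falls, stood at 786, 790 and 843 in DMSO and at 64.8, 52.5 and 46.6 in DSF+NSM (−3.87 ± 0.19, adjusted p = 2.1e-08), and ALDH18A1 (−1.80) and ALDH5A1 (−1.23) also fell. ALDH8A1 was the member called higher (3.08), 2 were called higher without DSF+NSM replicate 1, and none was when at least 10 in every library was required. Cholesterol synthesis genes rose, with 17 of 24 called higher and none lower (median 1.13), and at equal sums 9 higher and 4 lower (median 0.35). HMGCS1, which makes the precursor of mevalonate, stood at 1315, 1391 and 1411 in DMSO and at 21066, 18620 and 15615 in DSF+NSM (3.74 ± 0.25, adjusted p = 1.84e-07). MSMO1 and FDFT1, later enzymes of the pathway, rose by 2.63 and 2.32, and by 1.84 and 1.54 at equal sums.

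The 10 largest falls had less in common than the 10 largest rises. They were SGK3, MIR210HG, MYC, TMEM177, GAPT, PIGW, ALDH1B1, FAM86C1, C3orf80 and SLITRK5. SGK3, a kinase of endosomes, stood at 435, 452 and 481 in DMSO and at 56.9, 0 and 19.1 in DSF+NSM (−5.44 ± 1.04, adjusted p = 0.0009), so the value of a library listed at 0 sets part of its size. MIR210HG, the host of a microRNA of hypoxia, stood at 128, 107 and 107 and at 10.5, 3.09 and 0 (−4.99 ± 0.67, adjusted p = 5.43e-05). PIGW, an enzyme of GPI anchor synthesis, stood at 259, 267 and 311 and at 15, 24.2 and 12 (−4.00 ± 0.28, adjusted p = 2.89e-07). The remaining falls lay between −3.56 for SLITRK5 and −4.15 for TMEM177, an assembly factor of mitochondrial complex IV.

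Compared with the groups given either treatment alone, in the same fit, the combination differed from both for all of the 10 largest rises and for 7 of the 10 largest falls. All 10 of the largest rises were higher in DSF+NSM than in DSF and than in NSM (21.7% and 20.3% of all genes tested were called higher in these comparisons). The 10 largest falls were all lower than in DSF, and 7 were lower than in NSM (21.4% and 18.3% of all genes tested). Both sets were chosen on the same DSF+NSM libraries, so these counts are not independent of the choice. NSM replicate 3 stood apart, with Spearman correlations over genes of 0.952 and 0.959 to the other NSM libraries, which correlated at 0.993 with each other, and a cytoplasmic ribosomal RNA share of 0.643% beside 3.69% and 2.80%. Values against NSM are therefore also given without it, when 24.7% of all genes were called higher and 24.4% lower, and the counts of the 10 rises and the 10 falls were then again 10 and 7. HSP90AA1 had a mean of 47397 in DSF and 15541 in NSM, and the difference in log2 of DSF+NSM was 4.09 from DSF and 5.73 from NSM (adjusted p = 1.4e-07 and 9.7e-10). Of the 32 heat shock genes 28 were higher than in DSF and 26 higher than in NSM (29 without NSM replicate 3), where the list medians against DMSO were 0.10 and −0.46, beside 2.90 for the combination. All 3 medians share the same DMSO libraries.

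Against NSM, the lists did not all go in the direction of their change from DMSO. DDIT3 had a mean of 5465 in NSM, and the difference of DSF+NSM from it, 0.14 on the log2 scale, was not called (adjusted p = 0.6), as was the case for ATF4 (−0.03, adjusted p = 0.86). Of the 32 genes of the integrated stress response 5 were higher and 11 lower than in NSM (20.3% and 18.3% of all genes tested), or 5 and 17 without NSM replicate 3, and the list medians against DMSO were 0.67 for DSF, 1.60 for NSM and 1.09 for the combination. DNA replication genes were higher in the combination than in NSM in 27 of 37 cases (29 without NSM replicate 3) and lower than in DSF in 26 (21.4% of all genes tested), with medians against DMSO of −0.21 for DSF, −1.70 for NSM and −0.74 for the combination. Mitosis genes were lower in the combination than in NSM in 22 of 31 cases (23 without NSM replicate 3) and lower than in DSF in 20, with medians of −0.28, −0.16 and −1.11. HOXA10 differed by −1.49 from DSF and by −1.98 from NSM (adjusted p = 2e-05 and 2.5e-06), and HOXA9, which had a mean of 2465 in NSM, differed by −2.16 from NSM (adjusted p = 0.00011), or by −1.74 without NSM replicate 3 (adjusted p = 3.2e-07), and was not called against DSF (−0.40, adjusted p = 0.29).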

How the data were processed

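RNA of SHI-1 cells was sequenced as poly(A)-selected read pairs, and the authors deposited, for each library, a signal per gene that is a normalized count. The submitters' processing notes name bcl2fastq 2.19, Trimmomatic, Bowtie2, Picard, featureCounts and hg38, whereas the supplementary methods describe STAR and Salmon, so the aligner and any use of strand are not settled here. The table headers name 24 libraries, of which 12 were used. Between 32.2% and 32.9% of the values above 0 were whole multiples of the library's step (tolerance 0.01), too few to recover reads for a count test.

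Log2(value + 1) of the 13502 genes (of 14866) that reached 10 in 3 or more libraries was fitted with limma 3.58.1 (R 4.3.3; mean-variance trend, robust moderation, a mean for each of the 4 treatments), with Benjamini-Hochberg adjustment and a threshold of 0.05. All 12 libraries shared 1 estimate of the spread, and the number of calls rose most when NSM replicate 3 was left out. Fold changes are on the log2(value + 1) scale and understate the change of low genes. The fit was tested on made data for 13502 genes, 200 of them changed in DSF+NSM versus DMSO, and recovered 45% of changes of log2 size 1 and 92% of size 2, with 6.16% false among the calls. In the real data 52.8% of genes were called, far more than were changed in the made data. These rates therefore check the fit and do not describe the comparison itself. Sums of libraries and of gene classes were compared with exact permutation tests. Python 3.11.15 with pandas 2.3.3, numpy 2.4.6, scipy 1.17.1 and matplotlib 3.10.9 was used.

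Named were the 10 largest rises and falls among calls with no overlap and a mean level of 50 or more, the largest changes of the mean, up to 3 called members of each list and a fixed set of genes of interest to the study or the drugs. The members, lists, rule and alternatives were chosen with earlier results of these data known. Gene positions came from GENCODE 44 and promoter windows from RefSeq (10297 of the tested genes matched). Alternatives were other scalings (equal sums with and without ribosomal RNA, median of ratios, trimmed mean), other pseudocounts and filters, the 2 groups alone, a replicate block, library weights and leaving out each library, the last also for the comparison with NSM, chosen after the data were seen. Results of a few genes are not reported here.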

Additional observations from a re-analysis of the deposited data

How the results depend on the processing

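The scaling changed the division into higher and lower calls, and library weights changed the total number of calls most. Genes called higher numbered 1534 at equal sums and 1768 at equal sums without ribosomal RNA, against 3816 under the deposited scaling. Genes called lower numbered 7582 and 6905 against 3309, and genes past an absolute log2 of 1 numbered 6193 at equal sums against 3975. IDH3G turned to −0.081 and KMT2A to −0.23 at equal sums, and KMT2A to −0.10 at equal sums without ribosomal RNA. The number called stayed within 1.5 times of 7125 in the other settings, from 5980 without DMSO replicate 2 to 10122 with library weights. It was 8598 with only the 2 groups. At equal sums with only the 2 groups, a setting chosen after the data were seen, 10139 genes were called. Same-numbered DMSO and DSF+NSM libraries deviated together with correlations of 0.06, −3.2e-05 and 0.07, and differently numbered ones with −0.09 to 0.05. With 3 libraries per group these values cannot tell whether same-numbered libraries came from the same experiment. The replicate block gave 7279 calls, or 9220 at equal sums. Of 1560 values of named genes with 1 library left out, 12 were no longer called (ACTB, OMA1 and RNA18S5). Depth limits genes near 0 in DMSO, whose fold changes depend on the pseudocount.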

Other observations

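Small structured RNAs made without a poly(A) tail rose beside the ribosomal RNAs. RN7SK, the RNA that holds the elongation factor P-TEFb inactive, stood at 91, 148 and 112 in DMSO and at 4073, 3799 and 3559 in DSF+NSM (5.04 ± 0.28, limma adjusted p = 4.6e-08, 4.26 at equal sums). RPPH1, the RNA of ribonuclease P, rose by 3.41 and RNU11, an RNA of the minor spliceosome, by 3.23, and both were also higher at equal sums (2.63 and 2.47). Of 14 small nuclear RNA genes tested 8 were called higher and none lower (median 2.80), and of 14 small nucleolar RNA genes 7 were higher and none lower (median 0.96). The shares of all genes tested were 28.3% higher and 24.5% lower. Genes under 10 in every DMSO library entered the test only through treated libraries, so the absence of lower calls is no result about such genes. These genes were chosen after their values were seen, and the part of the poly(A) selection was not tested.

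Of the genes listed at 0 in all 3 DMSO libraries, 99 were above 0 in all 3 DSF+NSM libraries and 11 reached at least 50 in each. Beside CRYAB, MT1B, MT1G, MT1H and MIR7-3HG these were FLJ25758, CRYBA4, MAFA, LIF, ATP6V1G2-DDX39B and ATP1B2. LIF, a cytokine, was listed at 167, 176 and 159, and MAFA, a transcription factor of pancreatic beta cells, at 270, 280 and 118. In the other direction 23 genes listed at 0 in all DSF+NSM libraries were above 0 in all DMSO libraries, and none of them reached 50 in each.

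Protein-coding genes on chromosome 19 had a higher median than those of any other chromosome, 0.37 over 936 genes. Of these 381 (40.7%) were called higher, beside 28.6% of all protein-coding genes tested. At equal sums that median was −0.41. The 182 zinc finger genes named ZNF on this chromosome had a median of 0.04 and the other 754 genes one of 0.52.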
